A study of Mus musculus with 18 samples.

Results

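The matrix metalloproteinases (MMPs), the ADAMTS proteases, the ADAMTS-like proteins and their tissue inhibitors (TIMPs) were followed in mouse neural stem cell (NSC) cultures and in astrocytes made from them. Members were the protein-coding genes whose symbols begin with Mmp, Adamts or Adamtsl and a digit, together with Timp2, Timp3 and Timp4, which are not the whole TIMP family. The expression table held 43 of them among its 27997 genes, of which 16 were MMPs, 19 ADAMTS, 5 ADAMTS-like and 3 TIMP genes. The rule is one of names, but it was chosen with earlier results of these data known.

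RNA was sequenced from 3 mouse culture lines, each as NSCs and as astrocytes, with 3 libraries in each of the 6 groups and 18 in all. The tdTomato and EYFP lines came from spinal cord cells sorted for a reporter that Cre, expressed from the DNGR-1 (Clec9a) locus, had switched on. Such cells are called traced here. The study's methods describe the sort for tdTomato cells, which were taken from primary neurospheres grown in culture and not directly from tissue. Their labelled genotypes were DNGR-1+/- Tom+/- and DNGR-1+/- EYFP+/-, so both lines were labelled as heterozygous for DNGR-1. The hippocampal line was DNGR-1+/+ and came from GlastCre Huwe fl ROSA LSL EYFP mice. Whether Huwe1 had been deleted in it is not stated, and the log2 value of Huwe1 was 13.28 ± 0.11 (SD, n = 3) in its NSCs and 13.32 in both traced NSC groups. NSCs were kept with 20 ng/ml each of EGF and bFGF and collected at day 4, and astrocytes received 20 ng/ml of BMP4 and were collected at day 6. Each line is a single culture sampled at passages 10 to 12, so no p-value measures the spread between animals. In the fit of the 6 groups, p-values measure the spread between passages of 1 culture. In the comparison over all lines, the spread also holds differences between the lines in the change with fate. Tissue of origin, genotype and culture cannot be told apart in the comparison of traced with hippocampal cells, nor can fate, growth factors and day of collection in that of NSCs with astrocytes. The ages of the mice are not in the labels.

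These genes remodel the extracellular matrix. MMPs are zinc proteases made as inactive proenzymes, and most are secreted, while the membrane-type MMPs stay at the cell surface. ADAMTS proteases carry thrombospondin repeats that hold them in the matrix, and several of them cut the lecticans (aggrecan, versican, brevican and neurocan), the proteoglycans that fill the space around neural cells. ADAMTS-like proteins share the repeats but have no protease domain, and several bind fibrillin microfibrils. TIMPs block the active site of MMPs, and Timp3 also blocks ADAMTS proteases. In the nervous system, these enzymes are known for roles in migration, in perineuronal matrix and in the glial response to injury.

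The deposited values are on a log2 scale, relative to library size, and have the form of a regularized log, in which weak genes are pulled towards their mean. The transform is not named, and whether changes of weakly expressed members are understated was not tested. A gene was tested where its log2 value was at least 3.32 (10 on the linear scale) in at least 3 libraries, which 15448 genes and 34 of the members reached. Differences were called at a Benjamini-Hochberg adjusted p under 0.05 over all 15448 genes, and every adjusted p below is from limma. In these bulk cultures, fewer cells of a type and less RNA per cell cannot be told apart. All 6 astrocyte markers tested, among them Gfap, Aqp4 and Gja1, rose in astrocytes in every line. Markers of fibroblasts and mural cells also moved with fate, with a summed log2 level of 5.40 to 7.05 in NSC and 7.81 to 8.22 in astrocyte libraries. Of the 8 genes in that list, 2, 1 and 1 had means at or above the filter level in tdTomato, EYFP and hippocampal NSCs, and 5, 4 and 3 in their astrocytes. Over all lines, 5 were tested, 3 higher and 1 lower in astrocytes. Kcnj8 had the highest astrocyte means of the list, with 3.03, 2.51 and 2.64 in NSCs and 7.02, 7.25 and 7.56 in astrocytes, in the same order. Rgs5 had group means of 2.42, 2.06 and 2.62 in NSCs and 6.00, 5.99 and 5.83 in astrocytes, and Col1a1 of 4.44, 4.72 and 4.43 in NSCs and 4.68, 4.21 and 3.96 in astrocytes. Col3a1 measured 6.15, 2.95 and 1.93 in NSCs and 3.89, 1.56 and 1.62 in astrocytes and Lum 2.98, 2.96 and 1.50 in NSCs and 4.46, 3.79 and 1.56 in astrocytes, whereas Col1a2 and Pdgfrb lay near the floor in every group. Dcn, at 0.12, 0.34 and 0.13 in NSCs and 2.44, 1.05 and 0.16 in astrocytes, stayed below the filter level. Ependymal markers summed to 9.45 to 10.50 in NSC and 11.01 to 12.32 in astrocyte libraries (12.16 to 12.32 in hippocampal and at most 11.35 in traced astrocytes) and neuronal markers to 7.23 to 8.13 and 8.31 to 8.79, all 3 ependymal and 2 of 3 neuronal genes tested being higher in astrocytes. Oligodendrocyte lineage markers summed to 15.72 to 15.99 in NSC and 13.54 to 15 in astrocyte libraries, lowest in hippocampal astrocytes, and NSC and cycling genes to 15.10 to 15.43 in NSC, 13.00 to 13.25 in traced astrocyte and 14.22 to 14.48 in hippocampal astrocyte libraries. Endothelial markers summed to 5.38 to 5.59, 4.51 to 4.87 and 4.90 to 5.14 in tdTomato, EYFP and hippocampal NSC libraries and to 5.31 to 5.57, 5.28 to 5.70 and 3.70 to 4.41 in their astrocyte libraries. Of the 2 tested, Kdr fell in every line, and Flt1 rose in the EYFP line, fell in the hippocampal line and was higher in traced than in hippocampal astrocytes. The tdTomato cultures stood apart in Tmem119, a microglial marker, whose mean was 6.15 in their NSCs and 5.36 in their astrocytes, against at most 3.64 in the other groups, although Ptprc, Aif1 and Itgam were at the floor. The part of these markers in the results below was not tested.

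Between NSCs and astrocytes over all lines, 31 of the 34 members tested were called, 18 higher and 13 lower in astrocytes, where 81.9% of all tested genes were called (42.1% and 39.8% in these directions). By at least 1 on the log2 scale, 22 members differed, which is 64.7% of those tested against 24.7% of all tested genes. Of these, 12 were higher, against 14.6% of all tested genes, and 10 lower, against 10.1%. Adamts19 passed the filter only through NSC libraries and Mmp23 only through astrocyte libraries, so both had to differ, and these shares describe the members tested and not the families. The median change was 0.69 for the members and 0.02 for all genes tested. In the tdTomato line, 28 members were called, 17 higher and 11 lower, where 78.4% of all tested genes were (39.9% and 38.5% in these directions). The EYFP line also had 28, with 15 higher and 13 lower, against 75.2% (38.2% and 37.0%). The hippocampal line had 31, with 16 higher and 15 lower, against 76.3% (39.0% and 37.3%). Of the 34, 12 rose in all 3 lines, where 28.1% of all tested genes did, and 10 fell in all 3, where 27.8% did. A further 3 rose in some lines and fell in others (5.64% of all tested genes), and the other 9 were called in 1 or 2 lines in a single direction (31.0%). Without Mmp23 and Adamts19, 11 rose and 9 fell in all 3 lines.

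**Figure D1:**
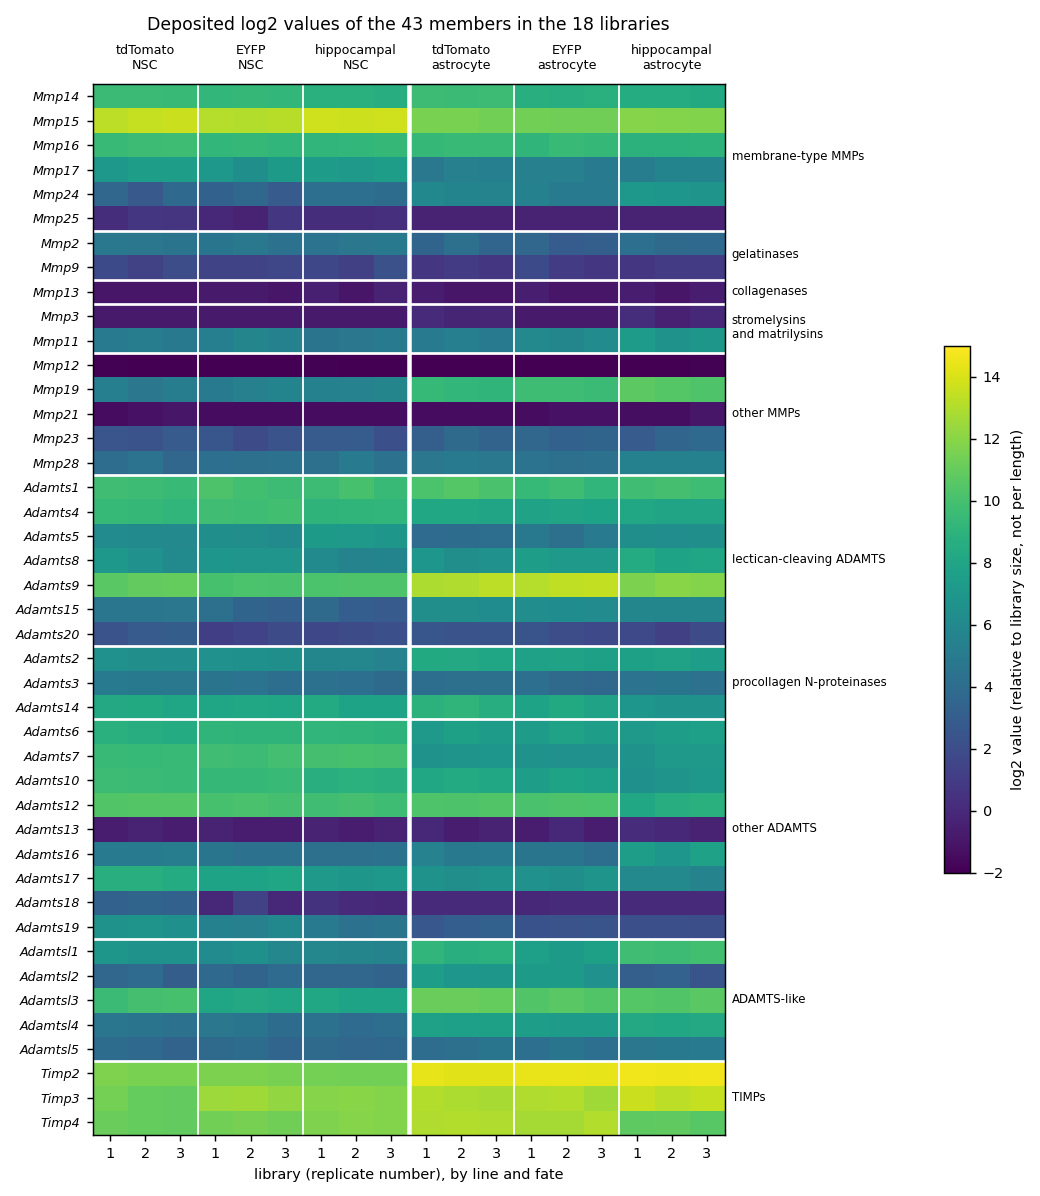
Deposited log2 values of the 43 members (rows, grouped by role) in the 18 libraries (columns, by line, fate and replicate number), coloured from -2 to 15. Mmp15 is the brightest MMP row in NSCs, Timp2 is brightest in astrocytes, and the rows of Mmp3, Mmp12, Mmp13, Mmp21, Mmp25 and Adamts13 are dark in all 18 libraries.

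Levels of different genes were compared per kilobase of the longest protein-coding transcript. Averaged over the lines, Mmp15 led all members in NSCs at a mean log2 level per kb of 11.09, followed by Timp2 (9.66), Timp3 (9.59) and Timp4 (8.95). Mmp15 came first in the NSCs of each line, and the 3 TIMP genes took the next 3 places. Mmp14, the next by the mean at 7.49, held rank 5 in tdTomato, 7 in EYFP and 8 in hippocampal NSCs. In astrocytes, the order of the means per kb was Timp2 (12.54), Timp3 (10.85), Adamts9 (9.73), Timp4 (9.72), Mmp15 (9.21) and Mmp19 (8.05). Timp2 and Timp3 lay within the spread between lines in NSCs, as did Adamts9 and Timp4 in astrocytes, and neighbours in this order were not tested against each other. In the astrocytes of both traced lines the same 5 genes came first, with Timp4 ahead of Adamts9 (10.52 against 10.05 in tdTomato and 10.36 against 10.29 in EYFP). In hippocampal astrocytes Mmp15 held rank 3 at 9.49, ahead of Adamts9 at 8.84 and Mmp19 at 8.75, and Timp4 held rank 6 at 8.27.

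When the levels per kb were summed within each family, the TIMP sum lay close to the MMP sum in NSCs and well above it in astrocytes. The difference of the log2 sums, TIMP minus MMP, was -0.67 ± 0.28 in tdTomato, 0.25 ± 0.17 in EYFP and -0.45 ± 0.09 in hippocampal NSCs (SD, n = 3 each). In astrocytes it was 2.82 ± 0.05, 3.07 ± 0.01 and 2.68 ± 0.09 in the same order, so every astrocyte library lay above every NSC library. The TIMP sum holds only the 3 TIMP genes followed here, so it is not the level of the whole inhibitor family. The MMP sum rested on few genes, since Mmp15 made up 80.8% to 89.5% of it in NSC libraries and 46.4% to 49.8% in astrocyte libraries. Adamts9 held 41.9% to 71.8% of the ADAMTS sum in astrocytes, and Timp2 62.5% to 72.3% of the TIMP sum there. The ADAMTS sum was 10.32 ± 0.03, 10.29 ± 0.04 and 10.06 ± 0.08 in tdTomato, EYFP and hippocampal NSCs, and 10.85 ± 0.11, 10.85 ± 0.14 and 10.00 ± 0.08 in their astrocytes. It was thus higher in the astrocytes of both traced lines, while the 2 hippocampal ranges overlapped. The ADAMTS-like sum, led by Adamtsl3 in every library, was 7.31 ± 0.18, 6.00 ± 0.14 and 5.79 ± 0.15 in NSCs and 8.84 ± 0.08, 8.27 ± 0.11 and 8.67 ± 0.11 in astrocytes. These sums are descriptions and were not tested.

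**Figure D2:**
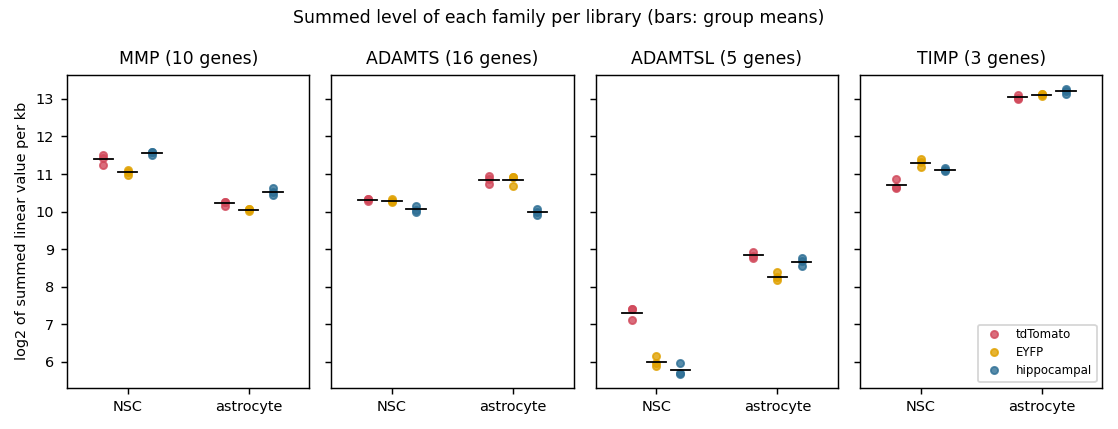
Log2 of the summed level per kb of the MMP, ADAMTS, ADAMTS-like and TIMP genes tested, by line and fate, with 1 point per library and bars for the mean of 3. TIMP sums lie between 10.62 and 11.39 in NSC and between 13.00 and 13.27 in astrocyte libraries, and MMP sums between 10.98 and 11.60 and between 10.02 and 10.62.

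Promoters are shown for members chosen by their level or by their change, as named for each. They are the 250 bases before the transcription start in RefSeq (GRCm38.p6), which had an entry for 28 of the 43 members. Capitals mark matches on either strand to an AP-1 site (TGANTCA), the element through which growth factors and cytokines induce several MMP genes, to a TATA box (TATAAA) or to a GC box (GGGCGG). Mmp3 and Mmp13 were near the floor in every library, Mmp15 was the highest protease in NSCs, Adamtsl4 rose in every line, Timp4 rose in traced and fell in hippocampal cultures, and Adamtsl2 rose in traced cultures.
Mmp3 (chr9:7445572-7445821, + strand): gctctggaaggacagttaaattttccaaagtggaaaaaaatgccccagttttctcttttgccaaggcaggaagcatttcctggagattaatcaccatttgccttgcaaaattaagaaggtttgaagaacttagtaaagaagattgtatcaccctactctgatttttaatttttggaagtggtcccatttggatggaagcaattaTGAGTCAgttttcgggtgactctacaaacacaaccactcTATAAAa
Mmp13 (chr9:7272264-7272513, + strand): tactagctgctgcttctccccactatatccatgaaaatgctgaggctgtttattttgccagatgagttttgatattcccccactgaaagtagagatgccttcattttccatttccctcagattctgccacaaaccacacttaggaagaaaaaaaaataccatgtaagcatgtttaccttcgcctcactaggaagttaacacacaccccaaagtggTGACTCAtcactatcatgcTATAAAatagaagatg
Mmp15 (chr8:95352046-95352295, + strand): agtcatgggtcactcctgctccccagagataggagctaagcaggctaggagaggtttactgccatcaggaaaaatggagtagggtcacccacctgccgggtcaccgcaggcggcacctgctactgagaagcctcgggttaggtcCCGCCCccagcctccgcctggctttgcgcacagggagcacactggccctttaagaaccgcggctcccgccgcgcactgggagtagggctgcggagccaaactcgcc
Timp4 (chr6:115252206-115252455, - strand): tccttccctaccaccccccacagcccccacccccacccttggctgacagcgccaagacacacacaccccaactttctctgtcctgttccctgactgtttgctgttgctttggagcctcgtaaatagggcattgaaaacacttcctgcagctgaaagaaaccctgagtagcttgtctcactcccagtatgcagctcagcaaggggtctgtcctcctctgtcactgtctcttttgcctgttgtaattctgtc
Adamtsl2 (chr2:27079129-27079378, + strand): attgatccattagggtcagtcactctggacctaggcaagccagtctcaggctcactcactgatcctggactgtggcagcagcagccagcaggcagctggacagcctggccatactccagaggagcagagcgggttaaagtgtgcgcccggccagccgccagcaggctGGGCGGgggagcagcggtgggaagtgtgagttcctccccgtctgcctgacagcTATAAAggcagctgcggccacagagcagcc
Adamtsl4 (chr3:95687918-95688167, - strand): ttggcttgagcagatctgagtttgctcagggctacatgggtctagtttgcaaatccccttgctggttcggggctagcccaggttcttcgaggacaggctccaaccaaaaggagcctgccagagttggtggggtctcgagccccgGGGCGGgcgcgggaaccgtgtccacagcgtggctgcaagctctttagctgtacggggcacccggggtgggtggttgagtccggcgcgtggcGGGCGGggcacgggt
The last 28 bases of the Mmp15 window lie inside the Mmp15 gene as GENCODE M21 draws it, and the other windows shown do not overlap their genes there. An AP-1 match lay in the window of 3 of the 28 members, Mmp3, Mmp12 and Mmp13, or 10.7%, against 6.75% of all 32851 promoters of the table. None of these 3 genes reached the filter. A TATA box lay in 5 members (17.9%, against 12.37% of all promoters) and a GC box in 19 (67.9%, against 32.74%). The letters GGCGCC, also searched as a GC-rich Smad site, lay in 6 members (21.4%, against 9.59%) and in none of the windows shown. None of the motifs was found in the Timp4 window, which says only that these letters are not in it. A motif match is a description and not a binding site.

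Of the membrane-type MMPs, Mmp15 and Mmp17 fell, Mmp24 rose, and Mmp14 and Mmp16 changed by less than 1 in every line. Mmp15 (MT2-MMP; chr8:95352268-95375080, plus strand, GENCODE M21 on GRCm38), a transmembrane collagen- and laminin-cleaving enzyme, had log2 values of 13.29, 13.52 and 13.62 in tdTomato, 13.14, 13.03 and 13.20 in EYFP and 13.79, 13.70 and 13.80 in hippocampal NSCs, and 11.57, 11.58 and 11.41 in tdTomato, 11.41, 11.33 and 11.31 in EYFP and 11.89, 11.85 and 11.80 in hippocampal astrocytes. Every astrocyte library lay below every NSC library. The change was -1.88 (SE 0.04, adjusted p = 9.3e-17) over all lines, and -1.96, -1.77 and -1.92 in the tdTomato, EYFP and hippocampal lines. Mmp17 (MT4-MMP), which is held to the membrane by a lipid anchor, measured 7.04, 7.53 and 7.47 in tdTomato, 7.09, 6.44 and 7.24 in EYFP and 7.39, 7.21 and 7.48 in hippocampal NSCs, and 4.80, 5.41 and 5.33 in tdTomato, 5.38, 5.39 and 5.06 in EYFP and 5.12, 5.65 and 5.69 in hippocampal astrocytes. Its ranges did not overlap between fates either, and it changed by -1.89 (SE 0.13, adjusted p = 3.5e-10). Mmp24 (MT5-MMP), a neural enzyme that cuts N-cadherin and the amyloid precursor protein, had values of 3.58, 2.72 and 3.80 in tdTomato, 3.29, 3.65 and 2.90 in EYFP and 4.20, 4.21 and 4.04 in hippocampal NSCs, and 5.91, 5.69 and 5.59 in tdTomato, 5.44, 5.01 and 5.02 in EYFP and 7.07, 6.91 and 6.83 in hippocampal astrocytes. It rose from near the filter level by 2.34 (SE 0.16, adjusted p = 2.6e-10), and hippocampal astrocytes were the highest group. Opposite-strand genes overlap 13.6% of its exonic bases, and whether counting used the strand is not stated. Mmp14 (MT1-MMP), the activator of pro-Mmp2, was abundant in all groups, with means from 8.48 in hippocampal astrocytes to 9.64 in tdTomato astrocytes, and changed by -0.26 (SE 0.07, adjusted p = 0.0044). It fell in the EYFP line, with a change of -0.58, and in the hippocampal line, with -0.26, and the tdTomato difference of 0.07 was not called (adjusted p = 0.32). Mmp16 (MT3-MMP) stayed between group means of 8.95 and 9.62 and changed by -0.14 (SE 0.06, adjusted p = 0.03). It fell in the hippocampal line, with a change of -0.27, while the differences of -0.16 (adjusted p = 0.075) in the tdTomato and 0.02 (adjusted p = 0.81) in the EYFP line were not called. Mmp25 (MT6-MMP), a leukocyte enzyme, did not reach the filter.

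Mmp19 showed the largest change of any member. This secreted protease of basement membrane proteins (chr10:128790910-128800824, plus strand) had log2 values of 5.36, 4.76 and 5.11 in tdTomato, 4.96, 5.41 and 5.70 in EYFP and 5.46, 5.54 and 5.72 in hippocampal NSCs, and 9.42, 9.27 and 9.10 in tdTomato, 9.69, 9.75 and 9.56 in EYFP and 10.71, 10.52 and 10.33 in hippocampal astrocytes. All 9 astrocyte libraries lay above all 9 NSC libraries. The change was 4.48 (SE 0.13, adjusted p = 8.3e-16) over all lines, and 4.19, 4.31 and 4.94 in the tdTomato, EYFP and hippocampal lines. Opposite-strand genes, Tmem198b and Gm47093, overlap 28.33% of the exonic bases of Mmp19, more than for any other member named here.

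The remaining MMPs tested changed less or depended on the line. Mmp2 (gelatinase A), which degrades denatured and basement membrane collagen, was low, with values of 4.83, 4.76 and 4.54 in tdTomato, 4.62, 4.79 and 4.39 in EYFP and 4.49, 4.76 and 4.89 in hippocampal NSCs, and 3.47, 4.26 and 3.56 in tdTomato, 3.64, 2.95 and 3.14 in EYFP and 4.21, 3.90 and 3.78 in hippocampal astrocytes. Its NSC libraries lay above its astrocyte libraries, and it changed by -1.02 (SE 0.14, adjusted p = 3.1e-06). Mmp11 (stromelysin-3), which furin activates inside the cell, measured 5.05, 5.16 and 4.85 in tdTomato, 5.37, 5.73 and 5.47 in EYFP and 4.52, 4.72 and 4.97 in hippocampal NSCs, and 5.09, 5.32 and 5.06 in tdTomato, 5.97, 5.78 and 6.19 in EYFP and 7.30, 6.69 and 6.99 in hippocampal astrocytes. It rose in the hippocampal line by 2.26 (SE 0.17, adjusted p = 1.1e-09) and in the EYFP line by 0.45 (SE 0.17, adjusted p = 0.023), while in the tdTomato line the difference was 0.14 (SE 0.17, adjusted p = 0.47). Mmp23, a small MMP released from the membrane on cleavage, lay around the filter level at 2.49, 2.33 and 2.88 in tdTomato, 2.56, 1.89 and 2.32 in EYFP and 2.88, 2.98 and 2.15 in hippocampal NSCs, and 3.13, 3.90 and 3.44 in tdTomato, 3.64, 3.26 and 3.46 in EYFP and 2.90, 3.53 and 3.80 in hippocampal astrocytes. It reached the filter level in 6 astrocyte and no NSC libraries, so it had to differ, and its change of 0.95 over all lines is given with no p. In the hippocampal line the ranges of the fates overlapped. Mmp28 (epilysin) changed by 0.62 (SE 0.15, adjusted p = 0.00078) between group means of 4.04 and 5.49. It rose in the tdTomato line by 0.79 and in the hippocampal line by 0.99, while the EYFP difference of 0.09 was not called (adjusted p = 0.69).

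The lectican-cleaving ADAMTS genes moved in both directions, with Adamts9 and Adamts15 rising and Adamts4 and Adamts5 falling in every line. Adamts9 (chr6:92772699-92943492, minus strand), which cuts versican and aggrecan, had log2 values of 10.66, 10.89 and 11.00 in tdTomato, 10.05, 10.20 and 10.14 in EYFP and 10.18, 10.29 and 10.35 in hippocampal NSCs, and 12.88, 12.99 and 13.29 in tdTomato, 13.08, 13.34 and 13.45 in EYFP and 11.67, 12.01 and 11.86 in hippocampal astrocytes. Astrocyte libraries of every line lay above all NSC libraries. Its change was 2.31 (SE 0.17, adjusted p = 6.8e-10) over all lines, and 2.20, 3.16 and 1.57 in the tdTomato, EYFP and hippocampal lines. Opposite-strand genes overlap 11.99% of its exonic bases. Adamts15, another versicanase, measured 4.65, 4.67 and 4.76 in tdTomato, 4.29, 3.49 and 3.20 in EYFP and 3.89, 3.09 and 2.88 in hippocampal NSCs, and 6.37, 6.37 and 6.26 in tdTomato, 6.36, 6.27 and 6.21 in EYFP and 5.83, 5.77 and 5.79 in hippocampal astrocytes. All its astrocyte libraries lay above all its NSC libraries, and it rose by 2.26 (SE 0.17, adjusted p = 1.2e-09). Adamts4 (aggrecanase-1), which cuts brevican and aggrecan, measured 9.37, 9.30 and 9.20 in tdTomato, 9.80, 9.71 and 9.88 in EYFP and 9.06, 9.13 and 9.21 in hippocampal NSCs, and 8.14, 8.11 and 7.94 in tdTomato, 7.80, 7.90 and 7.85 in EYFP and 8.10, 7.91 and 7.90 in hippocampal astrocytes. The ranges of the fates did not overlap, and it changed by -1.45 (SE 0.10, adjusted p = 1.5e-10). Adamts5 (aggrecanase-2) had values of 6.18, 6.07 and 6.02 in tdTomato, 6.47, 6.39 and 6.04 in EYFP and 7.26, 7.23 and 6.98 in hippocampal NSCs, and 3.92, 4.01 and 4.12 in tdTomato, 4.87, 4.25 and 4.93 in EYFP and 6.47, 6.34 and 6.49 in hippocampal astrocytes. Its change was -1.47 (SE 0.16, adjusted p = 1.8e-07). Over all lines its ranges overlapped, because hippocampal astrocytes reached the level of traced NSCs, and within each line the astrocytes were lower.

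Adamts8 and Adamts1 of the same group depended on the line. Adamts8 (aggrecanase activity; exons overlapped for 10.6% of their bases by an opposite-strand gene) measured 7.05, 6.63 and 6.06 in tdTomato, 6.91, 6.86 and 6.85 in EYFP and 6.05, 5.62 and 5.70 in hippocampal NSCs, and 6.94, 6.37 and 6.63 in tdTomato, 7.52, 7.17 and 7.12 in EYFP and 8.48, 7.88 and 8.08 in hippocampal astrocytes. It rose by 2.36 (SE 0.21, adjusted p = 1.2e-08) in the hippocampal line, whereas the differences were 0.07 (adjusted p = 0.79) in the tdTomato and 0.40 (adjusted p = 0.1) in the EYFP line. Adamts1, a broad versican- and aggrecan-cleaving enzyme, had values of 9.78, 9.67 and 9.45 in tdTomato, 10.24, 9.86 and 9.66 in EYFP and 9.67, 10.04 and 9.46 in hippocampal NSCs, and 10.16, 10.51 and 10.10 in tdTomato, 9.38, 9.71 and 9.18 in EYFP and 9.80, 9.96 and 9.73 in hippocampal astrocytes. Its change over all lines was 0.08 (SE 0.15, adjusted p = 0.63). It rose in the tdTomato line by 0.63 (SE 0.17, adjusted p = 0.0023) and fell in the EYFP line, with a change of -0.49 (SE 0.17, adjusted p = 0.012).

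Of the procollagen N-proteinases, which trim the amino ends of fibrillar procollagens, Adamts2 rose in every line. It measured 6.57, 6.42 and 6.36 in tdTomato, 6.62, 6.55 and 6.46 in EYFP and 5.78, 5.85 and 5.52 in hippocampal NSCs, and 8.31, 8.26 and 8.00 in tdTomato, 7.73, 7.82 and 7.65 in EYFP and 7.66, 7.81 and 7.56 in hippocampal astrocytes. The fates did not overlap, and it changed by 1.63 (SE 0.10, adjusted p = 5.1e-11). Adamts14 measured 8.23, 8.34 and 7.99 in tdTomato, 8.05, 8.21 and 8.09 in EYFP and 8.36, 7.89 and 7.86 in hippocampal NSCs, and 8.91, 9.15 and 8.56 in tdTomato, 7.83, 8.32 and 7.81 in EYFP and 6.94, 6.71 and 6.68 in hippocampal astrocytes. It rose in the tdTomato line by 0.68 (SE 0.16, adjusted p = 0.00096) and fell in the hippocampal line, with a change of -1.26 (SE 0.16, adjusted p = 1.4e-06), so that its tdTomato astrocytes were the highest group and its hippocampal astrocytes the lowest. The EYFP difference of -0.13 was not called (adjusted p = 0.48). Adamts3, which also cuts reelin, had group means from 3.94 to 4.90, with a difference over all lines of -0.27 (SE 0.14, adjusted p = 0.088). It fell in the tdTomato line, with a change of -0.68, and in the EYFP line, with -0.46, while the hippocampal difference of 0.33 was not called (adjusted p = 0.088). The traced and hippocampal changes differed by -0.90 (SE 0.21, adjusted p = 0.0019).

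Most other ADAMTS genes tested were higher in NSCs, and 5 of the 7 fell in every line, Adamts19 among them, where 27.8% of all tested genes did. Adamts7 (chr9:90163069-90208071, plus strand), which cuts cartilage oligomeric matrix protein, had log2 values of 9.43, 9.39 and 9.54 in tdTomato, 9.81, 9.68 and 9.91 in EYFP and 9.98, 10.05 and 9.96 in hippocampal NSCs, and 6.68, 6.79 and 6.96 in tdTomato, 6.73, 6.62 and 6.62 in EYFP and 6.66, 7.14 and 7.15 in hippocampal astrocytes. Every NSC library lay above every astrocyte library, and the change was -2.94 (SE 0.08, adjusted p = 7e-16), with -2.65, -3.15 and -3.02 in the tdTomato, EYFP and hippocampal lines. Adamts19, an enzyme without a settled substrate, measured 6.71, 6.77 and 6.56 in tdTomato, 5.48, 5.41 and 5.94 in EYFP and 4.93, 4.36 and 4.54 in hippocampal NSCs, and 2.61, 3.11 and 3.25 in tdTomato, 2.26, 2.36 and 2.40 in EYFP and 2.15, 2.15 and 2.08 in hippocampal astrocytes. It reached the filter level in all 9 NSC and no astrocyte libraries, so it had to differ, and its change of -3.15 over all lines is given with no p.

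Adamts6 and Adamts10, relatives that act on fibrillin microfibrils and cell adhesion, fell in every line. Adamts6 measured 8.77, 8.56 and 8.45 in tdTomato, 9.11, 9.03 and 9.08 in EYFP and 9.17, 9.14 and 8.96 in hippocampal NSCs, and 7.11, 7.65 and 7.42 in tdTomato, 7.35, 7.79 and 7.49 in EYFP and 7.13, 7.45 and 7.57 in hippocampal astrocytes. It changed by -1.48 (SE 0.09, adjusted p = 9.6e-11). Adamts10 measured 9.63, 9.59 and 9.50 in tdTomato, 9.33, 9.33 and 9.43 in EYFP and 8.72, 8.89 and 8.65 in hippocampal NSCs, and 8.16, 8.37 and 8.17 in tdTomato, 7.47, 7.86 and 7.57 in EYFP and 6.54, 6.82 and 7.08 in hippocampal astrocytes. It changed by -1.67 (SE 0.09, adjusted p = 9e-12). Adamts17, also tied to fibrillin, measured 8.64, 8.64 and 8.45 in tdTomato, 7.84, 7.84 and 8.07 in EYFP and 7.20, 7.01 and 7.08 in hippocampal NSCs, and 6.65, 6.41 and 6.68 in tdTomato, 6.61, 6.49 and 6.80 in EYFP and 5.98, 6.02 and 5.60 in hippocampal astrocytes. It changed by -1.50 (SE 0.11, adjusted p = 5.4e-10). For all 3 genes, every NSC library lay above every astrocyte library.

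Adamts16 and Adamts12 were called in the hippocampal line and in neither traced line. Adamts16, which can cut fibronectin, had values of 5.03, 5.10 and 5.19 in tdTomato, 4.64, 4.40 and 4.44 in EYFP and 4.29, 4.30 and 4.41 in hippocampal NSCs, and 5.54, 4.86 and 5.09 in tdTomato, 4.61, 4.59 and 4.12 in EYFP and 7.54, 6.96 and 7.76 in hippocampal astrocytes. The hippocampal astrocytes lay above all other libraries, and the change there was 3.09 (SE 0.20, adjusted p = 1.4e-10), against 0.05 (adjusted p = 0.81) and -0.05 (adjusted p = 0.82) in the tdTomato and EYFP lines. Adamts12, a relative of Adamts7, measured 10.38, 10.44 and 10.42 in tdTomato, 10.07, 10.09 and 9.99 in EYFP and 9.80, 9.98 and 9.74 in hippocampal NSCs, and 10.34, 10.24 and 10.36 in tdTomato, 10.13, 10.23 and 10.20 in EYFP and 8.16, 8.57 and 8.78 in hippocampal astrocytes. It fell in the hippocampal line, with a change of -1.33 (SE 0.10, adjusted p = 1.5e-09), and the differences of -0.10 (adjusted p = 0.38) and 0.14 (adjusted p = 0.24) in the traced lines were not called.

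Of the 5 ADAMTS-like genes, 4 rose in every line, as did 28.1% of all tested genes. Adamtsl4, which binds fibrillin-1 and anchors the lens zonule, had log2 values of 4.66, 4.53 and 4.39 in tdTomato, 4.71, 4.59 and 4.01 in EYFP and 4.38, 3.97 and 4.12 in hippocampal NSCs, and 7.75, 7.59 and 7.68 in tdTomato, 7.44, 7.35 and 7.34 in EYFP and 8.25, 8.12 and 8.26 in hippocampal astrocytes. It rose by 3.38 (SE 0.15, adjusted p = 3.5e-13), with 3.15, 2.94 and 4.05 in the tdTomato, EYFP and hippocampal lines. Adamtsl3, the highest of these genes per kb, measured 9.56, 10.00 and 10.02 in tdTomato, 7.99, 8.26 and 8.09 in EYFP and 8.14, 7.83 and 7.86 in hippocampal NSCs, and 11.09, 11.12 and 10.97 in tdTomato, 10.38, 10.62 and 10.40 in EYFP and 10.55, 10.39 and 10.66 in hippocampal astrocytes, and Adamtsl3 rose by 2.05 (SE 0.16, adjusted p = 1.7e-09). The tdTomato NSCs lay above the other NSC groups. Adamtsl1 measured 6.99, 6.64 and 6.76 in tdTomato, 6.19, 6.56 and 5.90 in EYFP and 5.84, 5.74 and 5.60 in hippocampal NSCs, and 9.19, 8.68 and 8.89 in tdTomato, 7.60, 7.28 and 7.65 in EYFP and 9.82, 9.68 and 9.85 in hippocampal astrocytes, and Adamtsl1 rose by 2.49 (SE 0.29, adjusted p = 4e-07), with 2.12, 1.30 and 4.06 in the tdTomato, EYFP and hippocampal lines. Hippocampal libraries were the lowest NSCs and the highest astrocytes. Adamtsl5, a fibrillin-binding member, was low at 4.01, 3.83 and 3.41 in tdTomato, 3.87, 4.00 and 3.52 in EYFP and 3.87, 3.58 and 3.76 in hippocampal NSCs, and 4.05, 4.25 and 4.63 in tdTomato, 4.21, 4.59 and 4.24 in EYFP and 4.72, 4.86 and 5.04 in hippocampal astrocytes, and Adamtsl5 rose by 0.75 (SE 0.13, adjusted p = 4.1e-05). Adamtsl2, which binds fibrillin-1 and latent TGF-beta binding protein, measured 3.61, 3.92 and 3.03 in tdTomato, 3.84, 3.50 and 3.96 in EYFP and 3.64, 3.64 and 3.39 in hippocampal NSCs, and 7.48, 6.94 and 7.03 in tdTomato, 7.28, 7.28 and 6.60 in EYFP and 3.15, 3.32 and 2.42 in hippocampal astrocytes. It rose in the tdTomato line by 3.63 (SE 0.27, adjusted p = 6.7e-10) and in the EYFP line by 3.28 (SE 0.27, adjusted p = 3e-09). In the hippocampal line its difference was -0.59 (SE 0.27, adjusted p = 0.051), with all 3 astrocyte libraries below all 3 NSC libraries.

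Timp2, Timp3 and Timp4 were among the highest members, and Timp2 and Timp3 rose in every line. Timp2 (chr11:118301069-118355740, minus strand), which inhibits MMPs and also takes part in the activation of pro-Mmp2 by Mmp14, had log2 values of 11.71, 11.60 and 11.56 in tdTomato, 11.65, 11.67 and 11.54 in EYFP and 11.46, 11.41 and 11.38 in hippocampal NSCs, and 14.35, 14.24 and 14.25 in tdTomato, 14.45, 14.43 and 14.39 in EYFP and 14.64, 14.55 and 14.61 in hippocampal astrocytes. Every astrocyte library lay above every NSC library, and the change was 2.88 (SE 0.06, adjusted p = 1.6e-17). Timp3 (chr10:86300372-86349506, plus strand), the matrix-bound inhibitor, measured 11.43, 10.98 and 10.90 in tdTomato, 12.50, 12.57 and 12.27 in EYFP and 11.93, 12.00 and 11.87 in hippocampal NSCs, and 13.02, 12.91 and 12.80 in tdTomato, 12.98, 13.06 and 12.60 in EYFP and 13.63, 13.30 and 13.53 in hippocampal astrocytes. It rose by 1.26 (SE 0.16, adjusted p = 1.3e-06) over all lines, and by 1.81, 0.43 and 1.56 in the tdTomato, EYFP and hippocampal lines. The smaller EYFP change went with EYFP NSCs that already lay above the other NSC groups. Syn3, on the opposite strand, overlaps 21.28% of the exonic bases of Timp3. Timp4 (chr6:115241892-115252205, minus strand), an inhibitor prominent in heart and brain, measured 11.10, 10.95 and 10.93 in tdTomato, 11.41, 11.49 and 11.33 in EYFP and 11.73, 11.90 and 11.86 in hippocampal NSCs, and 12.97, 13.01 and 12.96 in tdTomato, 12.72, 12.70 and 13.04 in EYFP and 10.75, 10.86 and 10.59 in hippocampal astrocytes. It rose in the tdTomato line by 1.99 (SE 0.08, adjusted p = 2.8e-13) and in the EYFP line by 1.41 (SE 0.08, adjusted p = 3.8e-11), and fell in the hippocampal line, with a change of -1.10 (SE 0.08, adjusted p = 1.1e-09). No library of one fate overlapped the other within a line.

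**Figure D3:**
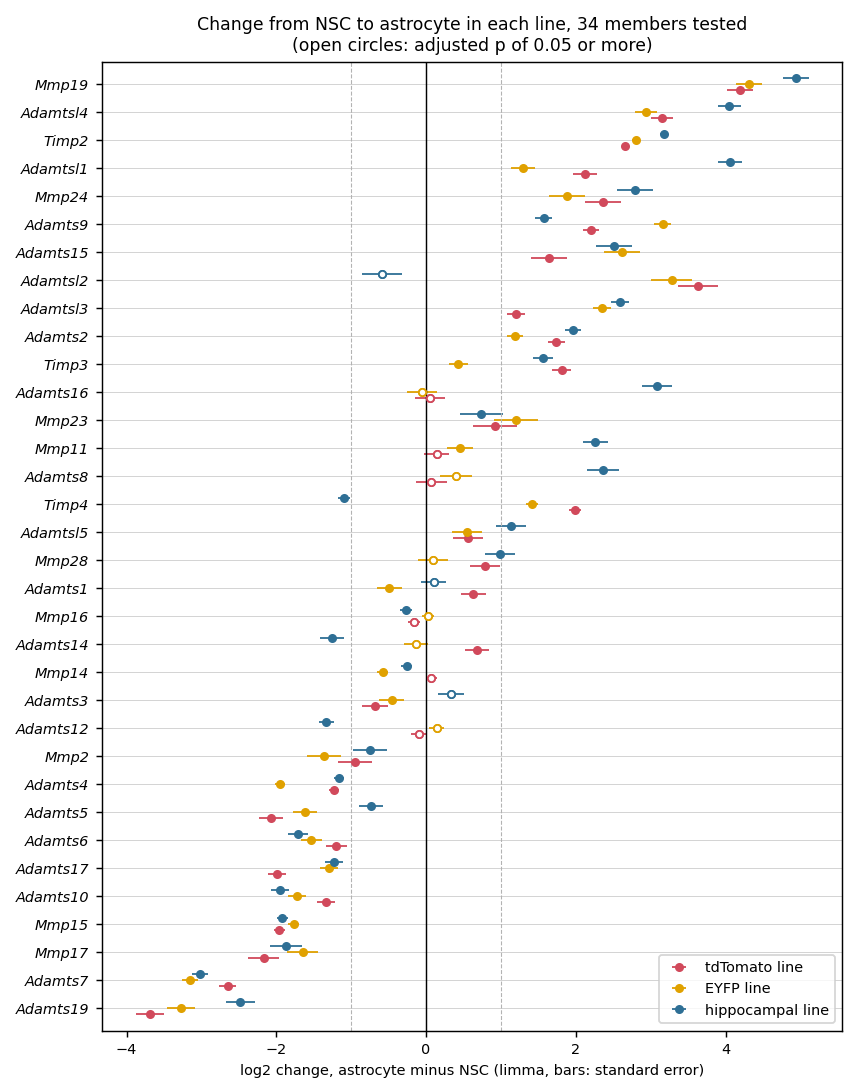
Log2 change from NSC to astrocyte (x axis, limma estimate with its standard error) in the tdTomato, EYFP and hippocampal lines for the 34 members tested, sorted by the change over all lines, with open circles where the adjusted p is 0.05 or more. Mmp19 lies between 4.19 and 4.94, and Timp4 and Adamts14 lie on both sides of 0.

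The change from NSC to astrocyte differed between the traced lines and the hippocampal line for 21 members, more positive in traced lines for 6 and less positive for 15, where 46.2% of all tested genes were called in this interaction (20.3% and 25.9% in these directions). By at least 1 it differed for 11, against 10.2% of all tested genes. Adamtsl2 had the largest difference, with an interaction of 4.05 (SE 0.32, adjusted p = 2.2e-08), followed in size by Adamts16 at -3.09 (SE 0.25, adjusted p = 2.2e-08) and Timp4 at 2.80 (SE 0.10, adjusted p = 2e-12). The other members past 1 were Adamtsl1 (-2.35), Adamts8 (-2.13), Mmp11 (-1.96), Adamts14 (1.54), Adamts12 (1.35), Adamts5 (-1.12), Adamts9 (1.11) and Adamtsl4 (-1.01). Protease and ADAMTS-like genes were on both sides. All the comparisons by line use the same 18 libraries and share them with one another.

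**Figure D4:**
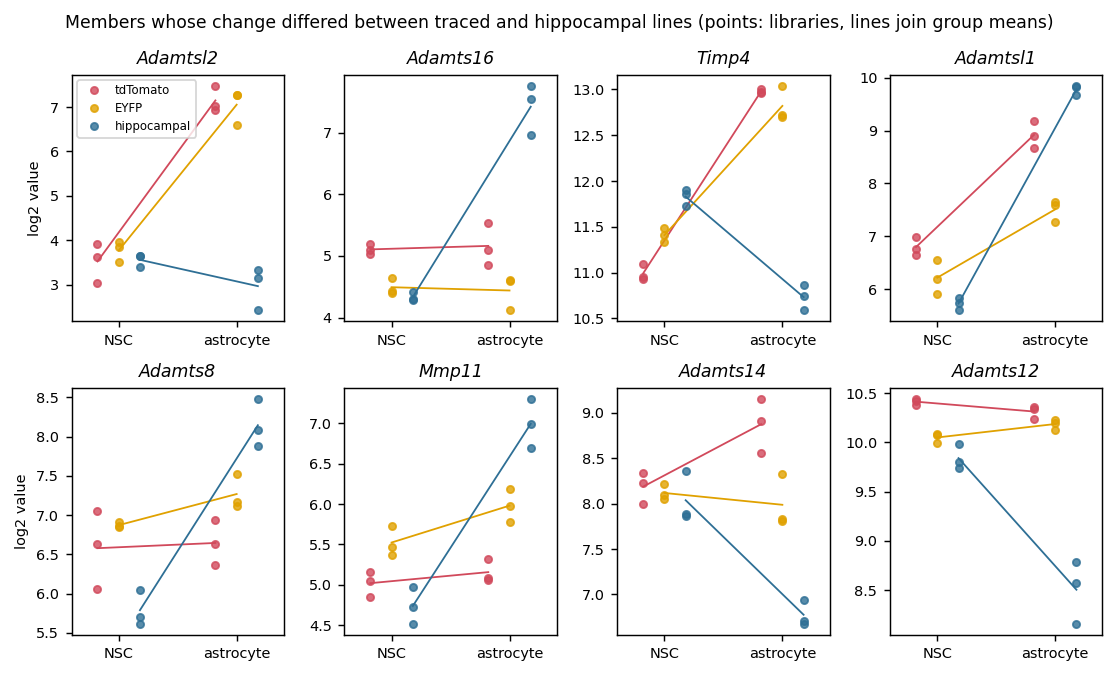
Deposited log2 values of the 8 members with the largest interaction of fate with traced against hippocampal origin, 1 point per library, by line, with NSCs and astrocytes side by side and lines joining group means. Adamtsl2, Timp4, Adamts14 and Adamts12 end higher in traced astrocytes, and Adamts16, Adamtsl1, Adamts8 and Mmp11 end higher in hippocampal astrocytes.

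In NSCs, 21 members were called between traced and hippocampal lines (16 higher and 5 lower in traced NSCs), where 31.9% of all tested genes were called (17.0% and 14.9% in these directions). By at least 1 there were 3, against 4.61% of all tested genes: Adamts19 at 1.53 (SE 0.17, adjusted p = 1.3e-06), Adamts17 at 1.15 (SE 0.11, adjusted p = 1.3e-07) and Adamtsl3 at 1.05 (SE 0.10, adjusted p = 2.2e-07), all higher in traced NSCs. Adamtsl3 was high in the tdTomato line alone, and with the 6 traced libraries treated as 1 group against 3, so that their own difference counts as spread, its adjusted p was 0.18. Of the marker genes tested, 3 of 6 astrocyte genes were lower and none higher in traced NSCs. There, 2 of 5 fibroblast and mural genes were higher and none lower, and the 1 microglial and myeloid gene was higher by 2.53. The ependymal, NSC and cycling, and oligodendrocyte lineage lists each had 1 gene lower, and the neuronal list 1 higher. In astrocytes, 27 members were called (12 higher and 15 lower in traced astrocytes; 59.7% of all tested genes, with 27.9% and 31.9% in these directions), 13 of them by at least 1 against 11.4%. Marker lists moved with this comparison too. Lower in traced astrocytes were 4 of 6 astrocyte, 3 of 3 ependymal and 3 of 4 NSC and cycling genes tested, and none of these lists held a gene that was higher. Of 5 fibroblast and mural genes tested, 3 were higher and none lower, and the 1 microglial and myeloid gene tested was higher by 2.7. Of 2 endothelial genes, 1 was higher and none lower. Among 3 neuronal genes 2 were higher and 1 lower, and among 5 oligodendrocyte lineage genes 3 and 2. The part of these markers in the differences between traced and hippocampal NSCs and astrocytes, and in the interaction with fate, was not tested. Higher in traced astrocytes were Adamtsl2 at 4.14 (SE 0.23, adjusted p = 4.9e-11), Timp4 at 2.17 (SE 0.07, adjusted p = 5.3e-14), Adamts12 (1.75), Adamts14 (1.65), Adamts9 (1.32) and Adamts10 (1.12). Higher in hippocampal astrocytes were Adamts16 at -2.62 (SE 0.17, adjusted p = 5.7e-10), Adamts5 (-2.08), Adamtsl1 (-1.57), Mmp24 (-1.49), Mmp11 (-1.43), Adamts8 (-1.19) and Mmp19 (-1.05).

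**Figure D5:**
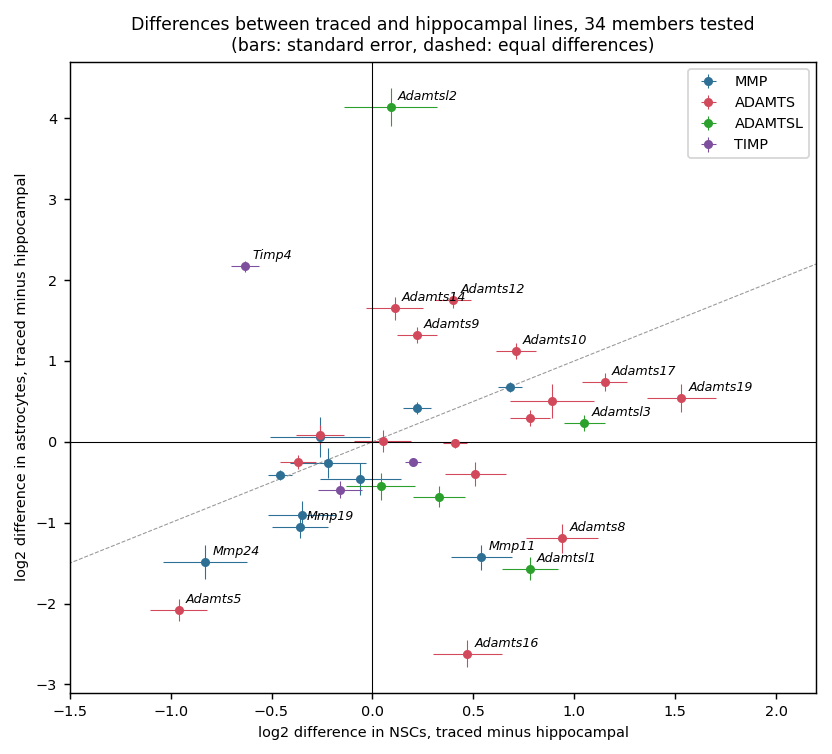
Difference between the traced lines and the hippocampal line in astrocytes (y axis) against that in NSCs (x axis), in log2 units, for the 34 members tested. Adamtsl2 lies near 0 in NSCs at 0.09 and at 4.14 in astrocytes, and Timp4 at -0.63 and 2.17.

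The traced lines differed from each other in NSCs for 18 members (12 higher and 6 lower in tdTomato; 31.4% of all tested genes, with 16.4% and 14.9% in these directions), by at least 1 for 4, against 3.00%. These were Adamtsl3 at 1.75 (SE 0.12, adjusted p = 1.1e-08), Timp3 at -1.34 (SE 0.13, adjusted p = 8.2e-07), Adamts19 at 1.07 (SE 0.19, adjusted p = 0.00051) and Adamts15 at 1.03 (SE 0.24, adjusted p = 0.0037). In astrocytes, 11 members were called (9 higher, 2 lower; 14.4% of all tested genes, with 7.06% and 7.31%), and only Adamtsl1 differed by at least 1, at 1.41 (SE 0.16, adjusted p = 5.7e-06), where 2.25% of all tested genes did. The change with fate differed between the traced lines for 12 members (9 more positive and 3 less positive in tdTomato; 13.3% of all tested genes, with 6.36% and 6.98%), by at least 1 for 3 (2.40% of all tested genes), which were Timp3 at 1.37 (SE 0.19, adjusted p = 0.00018), Adamtsl3 at -1.15 (SE 0.16, adjusted p = 0.00024) and Adamts1 at 1.12 (SE 0.23, adjusted p = 0.0045).

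Genes that act with these families were taken from 5 lists, and their counts stand beside 81.9% of all tested genes called over all lines, 42.1% higher and 39.8% lower. Of 8 activators and plasmin system genes, 6 were tested, 2 rose and 1 fell over all lines, with a median change of 0.15. Pcsk5, a proprotein convertase, changed by -1.54 (adjusted p = 2.7e-10), and Plau, the urokinase activator of plasminogen, was lower in traced than in hippocampal astrocytes by a log2 difference of -3.41 (adjusted p = 1e-11). Of 14 AP-1 and ETS factors, which drive many MMP genes, all were tested, 4 rose and 7 fell, with a median of -0.42. Fosb changed by -4.35, Etv1 by -2.44, Etv5 by -1.83 and Etv4 by -1.68. Of 15 lectican and other matrix substrates, 12 were tested, of which 4 rose and 7 fell. Reln, the reelin gene, rose by 4.80 and Fn1, fibronectin, by 2.58, whereas Fbn2 changed by -3.62, Fbn1 by -2.04 and Acan, aggrecan, by -1.80. Of 8 other inhibitors, 7 were tested, 3 rose and 3 fell, and A2m, the general protease trap, rose by 2.48 and was lower in traced than hippocampal astrocytes, with a difference of -3.69 (adjusted p = 1.2e-12). Of 15 related metzincins, 8 were tested, 4 rose and 3 fell, with Adam19 changing by -3.81 and Adam12 by -3.40.

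The 9 members below the filter were Mmp3 (stromelysin-1), Mmp9 (gelatinase B), Mmp12 (macrophage elastase), Mmp13 (collagenase-3), Mmp21, Mmp25, Adamts13 (which cuts von Willebrand factor), Adamts18 and Adamts20. Apart from Adamts18 and Adamts20, their group means ran from -1.99 for Mmp12 in EYFP cultures to 1.74 for Mmp9 in tdTomato NSCs. Adamts20 lay between 1.50 in EYFP NSCs and 2.75 in tdTomato NSCs. Adamts18 had a mean of 3.34 ± 0.11 (SD, n = 3) in tdTomato NSCs and means from 0.01 to 0.43 in the other groups, and reached the filter level in 1 library. A value near the floor of this scale does not tell a gene without reads from one with few. Mmp7, Mmp8, Mmp10, Mmp1a, Mmp1b, Mmp20 and Mmp27 were not analysed here.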

How the data were processed

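RNA was sequenced in 18 libraries (6 groups, n = 3) from 3 culture lines. Per the labels, libraries were made with a stranded poly(A) kit and gave at least 25 M reads of 76 bp. The submitters' processing notes name Trimmomatic (0.36), STAR (2.5.2), RSEM (1.3.0) and DESeq2 (1.18.1), with the Ensembl annotation of GRCm38. The authors deposited 1 table of log2 values for 27997 genes. Its transform is not named, 29.4% of the values are negative, and the depth behind each value is unknown, so no counting error is given.

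The deposited log2 values were fitted without further change in limma (version 3.58.1, under R 4.3.3), letting the variance follow the mean level. The comparison over all lines had the line as a covariate, and all others were contrasts of a fit of 6 group means to the 18 libraries. Traced against hippocampal is the mean of the tdTomato and EYFP groups minus the hippocampal group. Genes were tested where 3 or more libraries reached a log2 value of 3.32. Values by library are given for the tested members (30) that differed by at least 1 at an adjusted p under 0.05 in any comparison, and genes of the related lists were named by the same limits. The members and gene lists were chosen with earlier results of these data known. Fits were tested on simulated data. Symbols, positions and transcript lengths came from GENCODE M21 on GRCm38, and promoters from RefSeq. Alternatives were pseudocounts, other filters, centring, quantile normalization, other designs, the replicate number as a block, and the omission of each library.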

Additional observations from a re-analysis of the deposited data

Results flagged for a closer look

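The change from NSC to astrocyte differed between the traced lines and the hippocampal line, in a test of the difference itself (limma, interaction term), by at least 1 on the log2 scale for 11 members. It was more positive in the traced lines for Adamtsl2 (4.05, adjusted p = 2.2e-08), Timp4 (2.80, adjusted p = 2e-12), Adamts14 (1.54), Adamts12 (1.35) and Adamts9 (1.11). It was more positive in the hippocampal line for Adamts16 (-3.09, adjusted p = 2.2e-08), Adamtsl1 (-2.35), Adamts8 (-2.13), Mmp11 (-1.96), Adamts5 (-1.12) and Adamtsl4 (-1.01). Between the traced lines, the change differed by at least 1 for Timp3 (1.37) and Adamts1 (1.12), more positive in tdTomato, and for Adamtsl3 (-1.15), more positive in EYFP. Of these 14 genes, Timp4 rose in both traced lines and fell in the hippocampal line, Adamts14 rose in the tdTomato and fell in the hippocampal line, and Adamts1 rose in the tdTomato and fell in the EYFP line. Groups of 3 libraries were not searched for single libraries that stand apart.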

How the results depend on the processing

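None of the counts of members called in the 10 comparisons moved by more than 1.5 times under an alternative setting, and no named difference reversed. Of 3334 values of the 125 named differences under alternatives, 3332 kept their direction and an adjusted p under 0.05. The size limit of 1 on the log2 scale was not part of this count. The exceptions were Adamts16 over all lines under quantile normalization (0.79, limma adjusted p = 0.063), which changed in the hippocampal line and in neither traced line, and Adamtsl3 between traced and hippocampal NSCs with the traced libraries as 1 group (1.05, adjusted p = 0.18). That design, in which spread includes the tdTomato-EYFP difference, gave the lowest count there, 14 members against 21, and likewise 14 against 21 for the interaction of fate with traced against hippocampal. A filter of 100 on the linear scale tested fewer members and gave 25 against 31 over all lines. Leaving out 1 library gave 29 to 31 members over all lines, 27 to 29 in the tdTomato, 25 to 28 in the EYFP and 30 to 32 in the hippocampal line.

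The replicate number as a block gave 30 members called over all lines, 29, 29 and 32 in the tdTomato, EYFP and hippocampal lines, 23 and 27 between traced and hippocampal NSCs and astrocytes, 18 and 14 between tdTomato and EYFP, and 22 and 13 in the interactions. The numbers were not taken as a pairing, since libraries with the same number deviated from their groups with a mean correlation of 0.106 for pairs of the same fate (0.012 to 0.313 over 18 pairs) and -0.023 for NSCs with astrocytes of the same culture, although 15 of 18 libraries correlated best with their own number. Depth is unknown, so the limit for weak members such as Mmp9 or Adamts18 cannot be given.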
